A study of Mus musculus with 12 samples.

Results

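The genes described here are 4 mouse serpins, Serpinb1a, Serpinb6a, Serpinb9 and Serpina3g, which were named after earlier results of these data had shown Serpinb1a among the genes that differ most between sorted germinal centre (GC) B cells. For each gene the probe set that carries its symbol alone was used, and the one with the highest mean over the 12 arrays where there were several. Such a probe set was present for 3 of the 4 genes, out of 48 serpin genes and 19938 genes in all. Serpina3g was not measured by this rule. The members were chosen by their log2 expression values on these same arrays, so those values are given as a description with no test.

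The cells came from female C57BL/6J host mice (CD45.2) that had received CD45.1 B cells with the SwHEL receptor, which binds hen egg lysozyme, and were immunized with sheep red blood cells carrying the mutant lysozyme HEL3x. All 4 groups were donor GC cells (CD45.1+, CD45.2-, IgG1+, CD38 low) taken from spleen on day 10: LZ_high and LZ_low are light zone cells (CD86 high, CXCR4 low) of high and low affinity, and DZ_high and DZ_low are dark zone cells (CXCR4 high, CD86 low) of high and low affinity, with 3 arrays each. The labels give neither the age of the mice, nor how affinity was gated, nor whether replicate arrays stand for separate mice, so errors measure the spread between samples, which may be technical. A single transferred receptor and a single time point limit these groups as a model of GC cells in general.

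Serpins are protease inhibitors that offer a flexible reactive centre loop as bait; the protease cuts it and is trapped in a covalent complex. Members of clade B lack a classical secretion signal and act mainly inside the cell, where they guard it against proteases that leak from its own granules or lysosomes or that are delivered by other cells. Serpinb1a inhibits neutrophil elastase, cathepsin G and proteinase 3. Serpinb6a inhibits cathepsin G, Serpinb9 inhibits granzyme B and protects cytotoxic lymphocytes from it, and Serpina3g (Spi2A) is known in mouse as an inhibitor of lysosomal cysteine cathepsins that protects lymphocytes. Serpinb1a, Serpinb6a and Serpinb9 lie in 1 cluster of clade B serpins on chromosome 13 with 16 protein coding members in the reference annotation, and Serpina3g lies in a clade A cluster on chromosome 12.

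The 250 bases before the start of transcription are shown for the members that had an entry in the RefSeq promoter table (GRCm38.p6), and for Serpinb6b, the other gene of the cluster that passed the filter on low values, so that the members' promoters can be read beside that of a brighter neighbour. Serpinb6a (first of 2 starts, chr13:34002795-34003044, minus strand), Serpinb6b (chr13:32965011-32965260, plus strand), Serpinb9 (chr13:33004291-33004540, plus strand) and Serpina3g (chr12:104235897-104236146, plus strand) read as follows, 5′ to 3′, with motif matches in capitals.
Serpinb6a: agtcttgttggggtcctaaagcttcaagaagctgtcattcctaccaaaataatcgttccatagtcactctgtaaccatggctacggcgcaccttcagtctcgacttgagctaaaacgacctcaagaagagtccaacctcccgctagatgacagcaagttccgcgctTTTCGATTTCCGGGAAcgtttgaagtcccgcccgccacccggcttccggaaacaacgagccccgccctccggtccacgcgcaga
Serpinb6b: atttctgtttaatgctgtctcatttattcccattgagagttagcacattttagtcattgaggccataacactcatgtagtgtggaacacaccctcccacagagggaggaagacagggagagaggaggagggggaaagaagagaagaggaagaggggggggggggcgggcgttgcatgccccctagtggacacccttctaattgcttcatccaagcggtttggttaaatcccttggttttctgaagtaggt
Serpinb9: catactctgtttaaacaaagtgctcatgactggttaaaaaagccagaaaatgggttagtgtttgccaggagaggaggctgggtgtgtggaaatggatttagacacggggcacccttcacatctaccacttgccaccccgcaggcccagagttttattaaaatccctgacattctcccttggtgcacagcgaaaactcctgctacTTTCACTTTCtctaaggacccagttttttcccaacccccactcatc
Serpina3g: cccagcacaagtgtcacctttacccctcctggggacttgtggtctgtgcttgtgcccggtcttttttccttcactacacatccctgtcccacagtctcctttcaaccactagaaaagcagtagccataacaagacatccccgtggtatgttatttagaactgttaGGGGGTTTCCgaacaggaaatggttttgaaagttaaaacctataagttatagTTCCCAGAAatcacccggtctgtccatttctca

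The capitals mark letters that match, on either strand, the core of the interferon-stimulated response element (GAAA, any 2 bases, GAAA), the STAT site (TTCNNNGAA) or the NF-kB consensus. Serpinb9 held 1 match, to the interferon element, from 46 to 37 bases before the start. Serpina3g held an NF-kB match from 85 to 76 bases before the start and a STAT match from 33 to 25. Serpinb6a held an interferon match (84 to 75) that overlaps a STAT match (77 to 69), while its second start and Serpinb6b held none of the 3 motifs. Of 32851 promoters of the same length in the table, 2.98% held the interferon element, 7.02% the STAT site and 3.9% the NF-kB consensus. A match describes letters in the window and shows no binding.

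Serpinb1a (probe set 10408557) was highest in low-affinity light zone cells and lowest in high-affinity dark zone cells. Values on the log2 scale were 5.79, 6.35 and 5.72 in LZ_high, 7.87, 8.03 and 7.33 in LZ_low, 4.82, 4.84 and 5.41 in DZ_high, and 5.68, 5.07 and 6.58 in DZ_low, for replicates 1 to 3. Every LZ_low array lay above all 9 other arrays, and every DZ_high array lay below all 6 light zone arrays. Both light zone groups and DZ_low replicates 1 and 3 were at or above their array's median, and the DZ_high arrays and DZ_low replicate 2 were below it. The group means were 5.95 ± 0.35 in LZ_high, 7.74 ± 0.37 in LZ_low, 5.03 ± 0.33 in DZ_high and 5.77 ± 0.76 in DZ_low (SD, n = 3 each).

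From low to high the means therefore ran DZ_high, DZ_low, LZ_high and LZ_low. The values of DZ_low overlapped those of both DZ_high and LZ_high, so DZ_low was not separated from its neighbours in this order. LZ_high and LZ_low did not overlap. Replicates of the same number belong to 1 matched set, defined below. Compared by replicate number, DZ_high was below DZ_low in 3 of 3 (-0.85, -0.22 and -1.17). LZ_high was above DZ_low for replicates 1 and 2 and below it for replicate 3. LZ_low stood 0.98 above the nearest LZ_high array and 0.75 above the nearest DZ_low array. As a measure of how much the gene varied, its SD over the 12 arrays (1.12) ranked at position 66 of 19938 genes. In bulk samples, fewer cells that express a gene and less RNA per cell cannot be told apart.

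**Figure D1:**
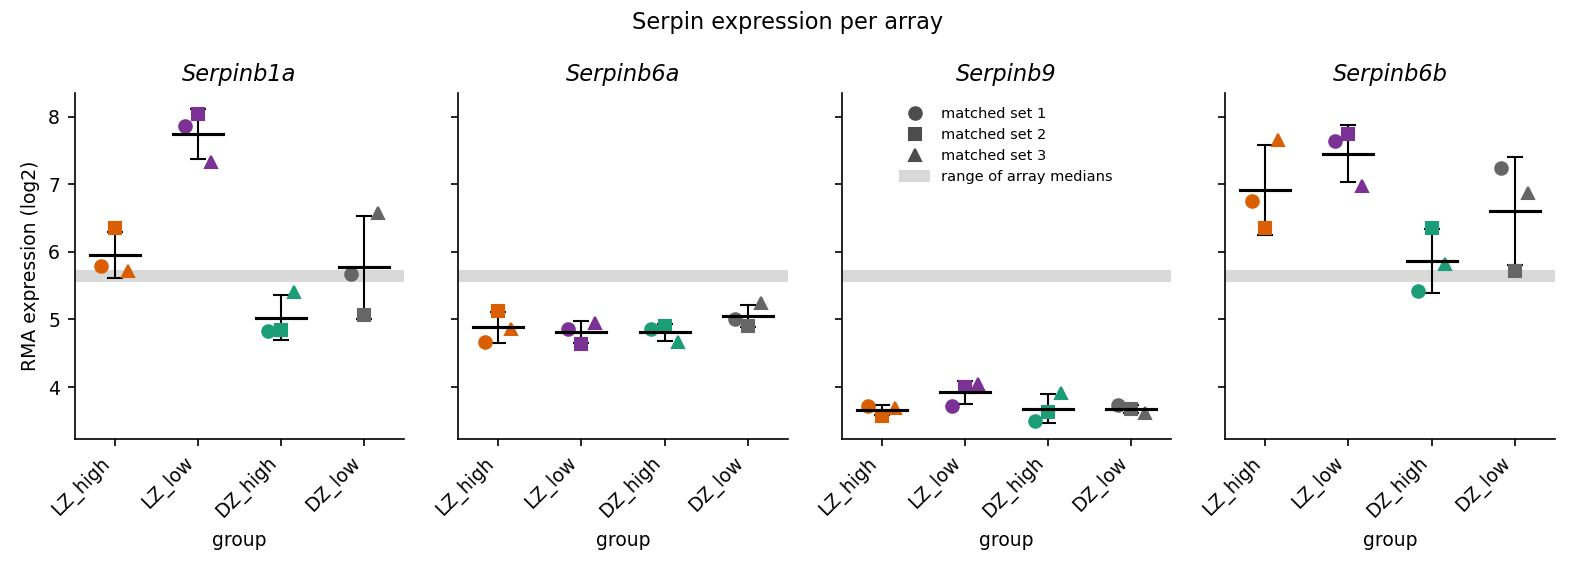
Log2 RMA expression of Serpinb1a, Serpinb6a, Serpinb9 and the neighbouring gene Serpinb6b in each of the 12 arrays by group; symbols mark the matched set, horizontal lines the group mean, bars the SD (n = 3) and the grey band the range of array medians. Serpinb1a separates LZ_low (7.33 to 8.03) from the other groups, while Serpinb6a and Serpinb9 stay below the band on every array.

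The difference between high and low affinity was larger in the light zone than in the dark zone for Serpinb1a. LZ_high minus LZ_low was -1.79 ± 0.35 on the log2 scale (SE of the fit over all groups), which is 3.46-fold lower in high-affinity cells. The difference was -2.07, -1.68 and -1.62 in matched sets 1, 2 and 3, the sets of 4 arrays, 1 per group, that share a suffix in the sample descriptions. DZ_high minus DZ_low was -0.75 ± 0.35, with -0.85, -0.22 and -1.17 in the sets, and it was -0.35 without DZ_low replicate 3. The affinity difference in the light zone minus that in the dark zone was -1.04 ± 0.50 (SE), and it was below 0 in 3 of 3 sets (-1.22, -1.46 and -0.45) and -0.69 without DZ_low replicate 2. For this interaction limma called 0 of all tested genes, and 1.58% of them had an unadjusted p under 0.05. LZ_high and LZ_low did not overlap for Serpinb1a, which held for 8.81% of the 11206 genes tested, and limma called 0 genes in this contrast (466 at an unadjusted p under 0.05). DZ_high and DZ_low overlapped, and 7.16% of tested genes did not.

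Between the zones, Serpinb1a was 1.45 ± 0.25 higher in light zone cells over both affinities (SE; 2.73-fold), and higher in 6 of 6 matched pairs of arrays. At high affinity LZ minus DZ was 0.93 ± 0.35 (1.90-fold), and at low affinity it was 1.97 ± 0.35 (3.92-fold). The high-affinity difference was 0.97, 1.51 and 0.31 in sets 1, 2 and 3, and the low-affinity difference 2.19, 2.97 and 0.75, so both were smallest in set 3. The 4 arrays of set 3 also stood apart from the rest on the first principal component of all tested genes, with scores of 12.5 to 52.9 against -26.4 to -6.71. Without set 3 the low-affinity difference was 2.58, and the difference over both affinities was 1.91. At high affinity the zones did not overlap for Serpinb1a, as for 7.38% of tested genes, and at low affinity they did not overlap either, as for 9.26%. The fit called 0.419% of tested genes over both affinities and 0.0357% at each affinity alone. With the matched set as a term of the fit (the replicate block) it called 1.2% over both affinities, 0.0803% at high affinity and 0.223% at low affinity.

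Serpinb6a (probe set 10408600) stayed below the array median on all 12 arrays. It read 4.67, 5.12 and 4.86 in LZ_high, 4.86, 4.64 and 4.95 in LZ_low, 4.86, 4.90 and 4.67 in DZ_high, and 5.01, 4.91 and 5.24 in DZ_low. The group means spanned 0.24 on the log2 scale, and DZ_high lay just below DZ_low with a gap of 0.0065 between their nearest arrays. All other pairs of groups overlapped. DZ_high and DZ_low did not overlap for 7.16% of all tested genes, which do not include Serpinb6a. Within matched sets Serpinb6a was lower in LZ_low than in DZ_low in 3 of 3 sets (-0.15, -0.26 and -0.29). It was also lower in DZ_high than in DZ_low in 3 of 3 (-0.15, -0.0065 and -0.57). The fitted differences were -0.23 ± 0.15 and -0.24 ± 0.15 (SE). The share of all tested genes that kept their sign in 3 of 3 sets was not counted.

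Serpinb9 (probe set 10404429) was dimmer still, between percentile 9.11 and 18.9 of its array. It read 3.72, 3.58 and 3.69 in LZ_high, 3.72, 4.00 and 4.04 in LZ_low, 3.49, 3.64 and 3.92 in DZ_high, and 3.73, 3.68 and 3.62 in DZ_low. The means were 3.66 ± 0.08 in LZ_high, 3.92 ± 0.17 in LZ_low, 3.68 ± 0.21 in DZ_high and 3.68 ± 0.05 in DZ_low (SD, n = 3 each). The groups overlapped in every pair. At so low a signal a microarray compresses differences, and the deposited values carry no detection call, so neither gene was tested and neither is shown to be absent.

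Within the cluster on chromosome 13, 13 of the 16 protein coding serpins had a probe set of their own, and only Serpinb1a and Serpinb6b passed the filter for testing, a value at or above the array median on at least 3 of the 12 arrays. The other 11, among them Serpinb1b and Serpinb1c, the closest relatives of Serpinb1a by name, had means over 12 arrays of 2.76 to 4.89. Their group means differed by at most 0.46, the value for Serpinb1b, which was 3.47 ± 0.20 in LZ_high, 3.93 ± 0.38 in LZ_low, 3.49 ± 0.20 in DZ_high and 3.63 ± 0.32 in DZ_low. Whether the probes of 1 relative bind RNA of another was not tested. The 3 probe sets shared by Serpinb9d, Serpinb9e, Serpinb9f and Serpinb9g ranged from 3.56 to 4.30 and were assigned to no gene.

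**Figure D2:**
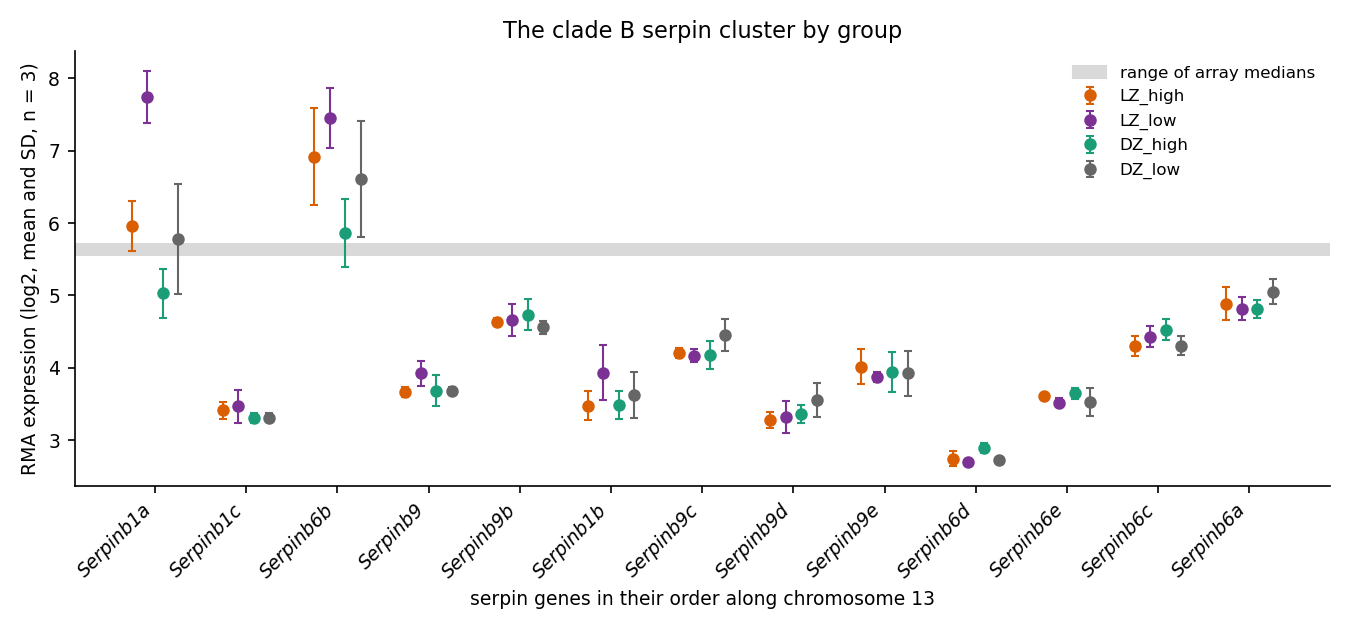
Mean log2 RMA expression (points) and SD (bars, n = 3) by group for the 13 clade B serpins of the chromosome 13 cluster with a probe set of their own, in their order along the chromosome; the grey band is the range of array medians. Serpinb1a and Serpinb6b lie above the band in 3 and 4 of the groups, and the other 11 genes lie below it, with means of 2.76 to 4.89.

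Serpinb6b, a mouse clade B serpin named for its likeness to Serpinb6a, read 6.75, 6.36 and 7.65 in LZ_high, 7.63, 7.75 and 6.98 in LZ_low, 5.42, 6.36 and 5.82 in DZ_high, and 7.24, 5.71 and 6.87 in DZ_low. LZ_low lay above DZ_high on every array, and all other pairs of groups overlapped or touched. The share of all tested genes with no overlap of LZ_low and DZ_high was not counted. LZ minus DZ was 0.95 ± 0.31 (SE), positive in 5 of 6 pairs and equal in the other, and it did not pass limma's test over all genes (adjusted p = 0.372; 0.26 with the replicate block). LZ_high minus LZ_low was -0.53 ± 0.43 (adjusted p = 0.999), negative in sets 1 and 2 and positive in set 3. It was -0.25 without LZ_high replicate 2, -0.90 without LZ_high replicate 3 and -1.19 with array weights, which lower the weight of arrays far from the fitted means (adjusted p = 0.0624). With array weights LZ minus DZ of Serpinb6b was 0.52. Over the 12 arrays its Pearson correlation with Serpinb1a was 0.726, and 0.298 after group means were removed.

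Of the 45 serpins other than the members on the array, 6 were tested and none passed in any of the 6 contrasts by limma, with or without the block, where the fit called 0 to 1.2% of all tested genes. An unadjusted p under 0.05 without the block was held by at most 2 of the 6, at high affinity, where 4.53% of all tested genes held one. LZ minus DZ was -0.21 ± 0.14 (SE) for Serpinf1, which encodes pigment epithelium-derived factor, 0.01 ± 0.16 for Serpinf2 (alpha-2-antiplasmin) and 0.37 ± 0.17 for Serpini1 (neuroserpin). For Serpini1 it was 0.85 ± 0.25 at high affinity (unadjusted p = 0.00536, adjusted p = 0.676, positive in 3 of 3 sets) and -0.10 ± 0.25 at low affinity, with an interaction of 0.95 ± 0.35 (adjusted p = 1, positive in 3 of 3 sets). LZ minus DZ was 0.18 ± 0.30 for Serpind1 (heparin cofactor II) and 0.11 ± 0.17 for Serpine3. Their median was 0.14 with Serpinb6b included, against -0.004 over all 11206 tested genes. With array weights Serpinf1 passed over both affinities (-0.43, adjusted p = 0.0343) and Serpini1 at high affinity (0.91, adjusted p = 0.0133). None of the 15 clade A serpins was tested. They include Serpina9, chosen after its values were seen because its human counterpart marks GC B cells, with means of 4.35 ± 0.22 in LZ_high, 4.16 ± 0.22 in LZ_low, 4.28 ± 0.07 in DZ_high and 4.17 ± 0.03 in DZ_low, below the median on all 12 arrays.

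Proteases that serpins of this kind inhibit or act beside were taken as a list of 43 genes, of which 41 were on the array and 24 were tested. In LZ minus DZ, 1 of the 24 rose and none fell by limma, against 0.419% of all tested genes. With the replicate block 2 rose and 1 fell, against 1.2% of all. The list's median was 0.02 and that of all tested genes -0.004. Casp4, which encodes the inflammatory caspase known in mouse as caspase-11, a sensor of bacterial lipopolysaccharide in the cytosol, was the gene that rose. Its values were 7.75, 7.88 and 8.76 in LZ_high, 7.33, 7.27 and 7.09 in LZ_low, 6.05, 6.88 and 6.10 in DZ_high, and 6.65, 6.32 and 6.91 in DZ_low. All 6 light zone arrays were above all 6 dark zone arrays, and LZ_high was above LZ_low on every array. LZ_high and LZ_low did not overlap for 8.81% of all tested genes. The share for all 6 arrays against all 6 was not counted.

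LZ minus DZ of Casp4 was 1.20 ± 0.21 (SE, limma adjusted p = 0.0365; 6 of 6 pairs). The call was lost in 10 of the 12 fits without 1 array (adjusted p = 0.0548 to 0.118) and held without LZ_high replicate 3 (0.0297) and without DZ_high replicate 2 (0.0351). LZ_high minus LZ_low of Casp4 was 0.90 ± 0.29 (adjusted p = 0.999, higher in 3 of 3 sets), and 0.59 without LZ_high replicate 3. DZ_high minus DZ_low of Casp4 was -0.29 ± 0.29 (adjusted p = 1). Casp1, the caspase that matures interleukin-1 beta, had an LZ minus DZ value of 0.20 ± 0.24 (adjusted p = 0.999).

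Among the lysosomal proteases, Ctsh, which encodes the aminopeptidase cathepsin H, had an LZ minus DZ value of 0.51 ± 0.19 and Ctse, which encodes the endosomal aspartic protease cathepsin E, one of -0.47 ± 0.16 (SE). Neither passed limma's test without the block (adjusted p = 0.519 and 0.432), and both passed with it (0.0405 and 0.0439). Both kept their sign in 6 of 6 pairs. Ctsh averaged 10.67 ± 0.36 in LZ_high, 10.88 ± 0.31 in LZ_low, 10.20 ± 0.35 in DZ_high and 10.34 ± 0.38 in DZ_low (SD, n = 3 each). Ctse read 10.36, 10.43 and 10.71 in LZ_high, 10.79, 10.77 and 11.31 in LZ_low, 11.13, 10.98 and 11.59 in DZ_high, and 11.14, 10.85 and 11.53 in DZ_low. Ctsb, a lysosomal cathepsin that Serpina3g inhibits in mouse, had 0.38 ± 0.35 (adjusted p = 0.999). The Ctsb value was positive in 5 of 6 matched pairs and negative in the other. It was 0.049 without LZ_low replicate 3 (9.32, against 7.64 and 7.08 in LZ_low replicates 1 and 2), a fit that leaves set 3 incomplete. Without the whole of set 3 it was 0.13, so much of it lay in that set.

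The textbook targets of the members were mostly dim. Elane, which encodes neutrophil elastase, was tested, with an LZ minus DZ value of -0.08 ± 0.10 (adjusted p = 0.999), and its values lay near the array median, between group means of 5.43 in LZ_low and 5.68 in DZ_high. Prtn3 (proteinase 3, 4.83 to 5.64) and Ctsg (cathepsin G, 3.83 to 4.60) were below the median on all 12 arrays. Gzmb (granzyme B, 4.07 to 6.16) and Ctsl (cathepsin L, 4.91 to 6.29) were above it on 1 array each. In LZ_high minus LZ_low no protease of the list passed by limma, without or with the block, and 1 of the 24 had an unadjusted p under 0.05 (Casp4), near the 4.16% of all tested genes. There 20 of the 24 had negative values, with a median of -0.17 against -0.002 over all tested genes. Ctse (-0.45 ± 0.23) and Casp8, an initiator caspase of cell death (-0.44 ± 0.25), had the smallest unadjusted p after Casp4, with an adjusted p of 0.999 each. Without LZ_high replicate 3 the value of Casp8 was -0.11, and without LZ_low replicate 3 that of Ctse was -0.28. Both fits leave a matched set incomplete. Within sets 1, 2 and 3 the values were -0.43, -0.33 and -0.60 for Ctse and -0.26, -0.11 and -0.97 for Casp8.

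Other protease inhibitors were taken as a list of 22 genes, of which 21 were on the array and 9 were tested. None passed in LZ minus DZ by limma, 2 had an unadjusted p under 0.05 (7.06% of all tested genes had), and 1 passed with the replicate block, against 1.2% of all. The gene that passed with the block was Birc3, an inhibitor of apoptosis protein that acts as a ubiquitin ligase and is induced by NF-kB. LZ minus DZ was 0.72 ± 0.15 (SE, adjusted p = 0.0754; 0.0405 with the replicate block; 6 of 6 pairs). Its values were 9.31, 9.19 and 9.26 in LZ_high, 9.42, 9.14 and 9.35 in LZ_low, 8.59, 8.71 and 7.83 in DZ_high, and 8.83, 8.76 and 8.62 in DZ_low, so the zones did not overlap. Of all tested genes, 7.38% had no overlap between the zones at high affinity and 9.26% at low affinity. The share over both affinities together was not counted. The other gene with an unadjusted p under 0.05 was Slpi, which encodes a secreted inhibitor of neutrophil elastase and cathepsin G and is outside the rule for named genes, so it was chosen after its values were seen. Slpi read 8.81, 9.59 and 8.90 in LZ_high, 8.51, 9.18 and 9.38 in LZ_low, 10.67, 10.89 and 10.19 in DZ_high, and 10.04, 9.26 and 9.01 in DZ_low. Its LZ minus DZ value was -0.95 ± 0.23 (SE, adjusted p = 0.16; 0.103 with the replicate block; negative in 5 of 6 pairs), of opposite sign to that of Birc3 and the largest in size of the 9. The Slpi value was -1.49 at high affinity and -0.42 at low affinity, and limma called neither, without or with the block. In LZ_high minus LZ_low none of the 9 had an unadjusted p under 0.05, against 4.16% of all tested genes. The smallest were those of the cystatin genes Cstb (0.25 ± 0.26) and Cst3 (-0.14 ± 0.29) and of Birc2 (0.21 ± 0.35), with an adjusted p of 0.999 each.

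**Figure D3:**
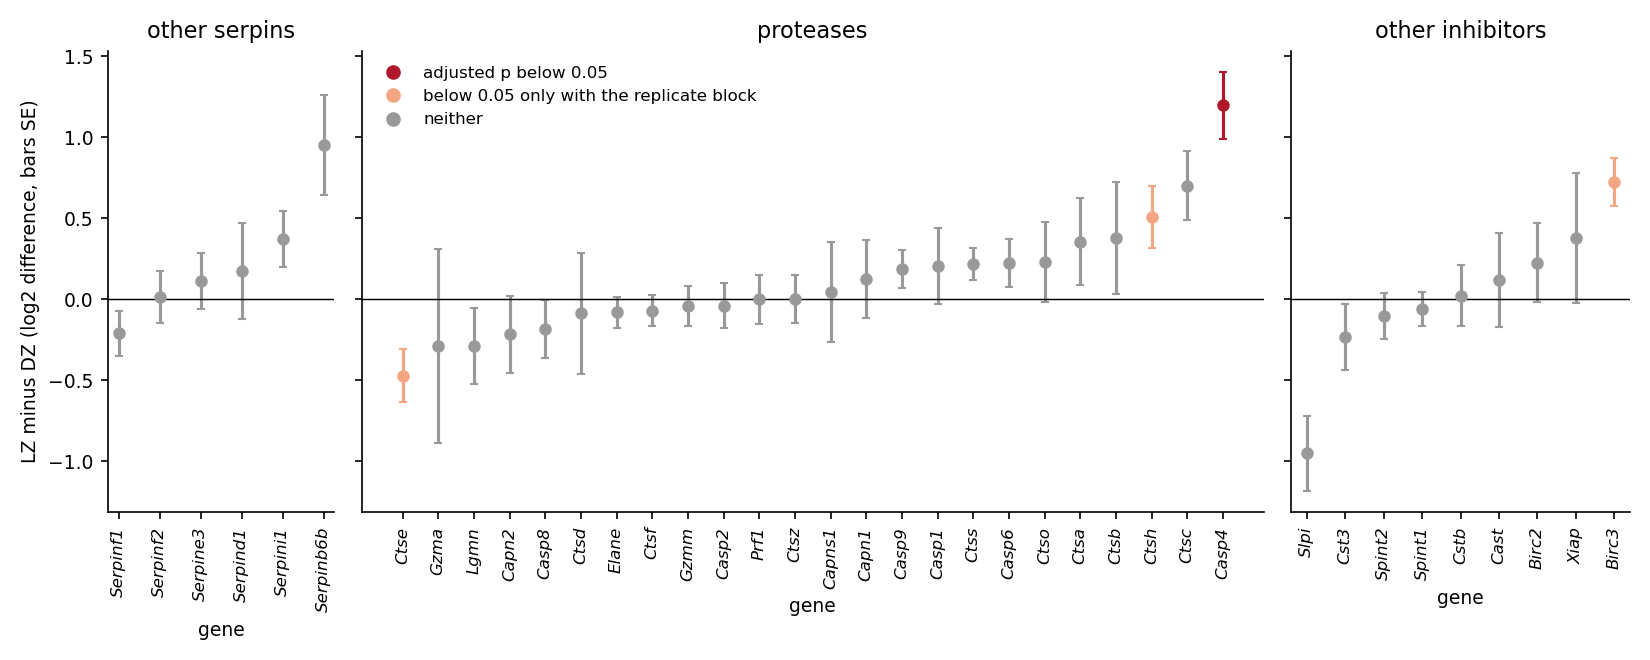
LZ minus DZ difference in log2 expression (points) with the SE of the fit (bars) for the tested serpins other than the members, proteases and other protease inhibitors, ordered within each list. Casp4 (1.20) passed limma's test over all genes, while Ctse (-0.47), Ctsh (0.51) and Birc3 (0.72) passed with the replicate block and not without it.

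The likeness of other genes to Serpinb1a was measured by the Pearson correlation over the 12 arrays for 11205 other tested genes. It is given as a description, since the arrays share groups and matched sets. Predicted genes (Gm plus digits), Rik clones, LOC entries and immunoglobulin or T cell receptor segments were left out of the ranking. The 6 highest of the rest were Myo1f, a class I myosin gene (r = 0.915), Pdcd4, an inhibitor of translation (0.912), the transcription factor gene Hhex (0.895), Pdcd2l (0.893), the sorting receptor gene Sorl1 (0.882) and H2-M3, a non-classical MHC class I gene (0.878). Their Spearman correlations were 0.902, 0.888, 0.874, 0.855, 0.902 and 0.769 in that order. Without the 2 arrays farthest from the median of Serpinb1a, LZ_low replicates 1 and 2, Pearson's r was 0.897, 0.927, 0.804, 0.763, 0.913 and 0.817. With group means removed it was 0.539, 0.52, 0.486, 0.817, 0.525 and 0.278, so that for 5 of the 6 genes much of the likeness lay between groups.

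All 6 genes had their highest group mean in LZ_low, as Serpinb1a did, which largely follows from choosing them by their correlation with it. Sorl1 had group means of 9.80 in LZ_high, 10.44 in LZ_low, 9.08 in DZ_high and 9.31 in DZ_low, and Hhex 7.69, 8.85, 5.85 and 6.61 in the same groups. The most opposite profiles, with the same kinds of genes left out, were those of Gata5 (r = -0.821), the chromatin protein gene Hmgb2 (-0.817) and Coro6 (-0.813). Without the same 2 arrays these were -0.535, -0.685 and -0.779.

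**Figure D4:**
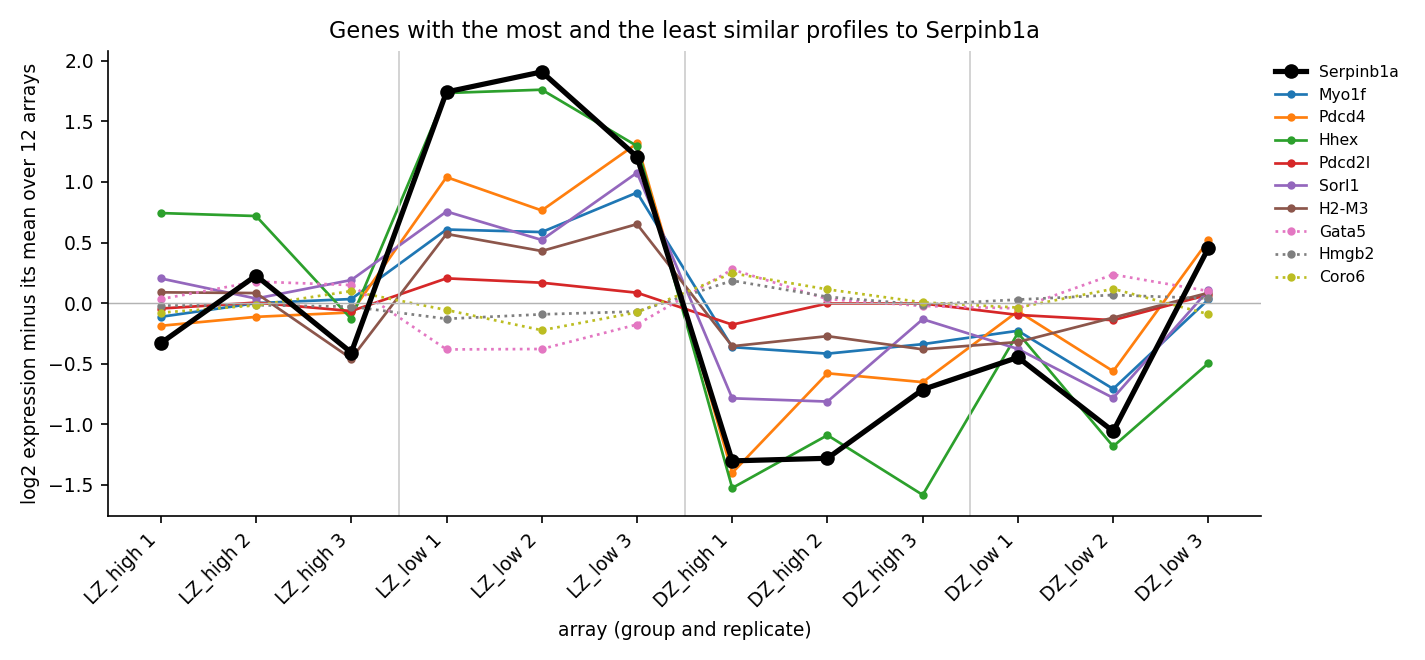
Log2 expression minus the gene's own mean over 12 arrays, for Serpinb1a (black), the 6 genes with the highest (solid) and the 3 with the lowest (dotted) Pearson correlation to it; arrays are ordered by group and replicate. Predicted genes, Rik clones, LOC entries and immunoglobulin or T cell receptor segments were left out of the ranking. Serpinb1a and the 6 similar genes have their highest group mean in LZ_low, which largely follows from choosing the 6 by that correlation.

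Markers of the sorted cells and of other cell types were set beside these values, as sums of log2 values over each list. The 6 B cell markers on the array were above the median on at least 1 array each, with sums of 64.2 to 65.0 in LZ_high, 65.6 to 66.4 in LZ_low, 63.6 to 65.4 in DZ_high and 64.4 to 66.5 in DZ_low, and with a correlation of 0.749 to Serpinb1a. The 5 GC markers, none below the median throughout, summed to 47.3 to 49.2 in LZ_high, 49.1 to 49.7 in LZ_low, 48.1 to 49.5 in DZ_high and 48.9 to 50.3 in DZ_low (r = 0.0738). Granulocytes are rich in Serpinb1a. The 9 granulocyte markers summed to 47.0 to 59.8 in LZ_high, 48.0 to 60.2 in LZ_low, 47.7 to 61.0 in DZ_high and 48.3 to 56.5 in DZ_low, with Ly6g and Ltf below the median on every array, and the sum had a correlation of 0.0978 with Serpinb1a. These correlations are over the 12 arrays, which share groups and matched sets. The 8 macrophage and monocyte markers summed to 39.8 to 43.4 in LZ_high, 40.4 to 46.4 in LZ_low, 41.6 to 43.0 in DZ_high and 40.2 to 41.7 in DZ_low, with Csf1r, Adgre1, Mertk and Cd14 below the median throughout. Their sum had a correlation of 0.303 with Serpinb1a. The 10 T and NK cell markers summed to 46.2 to 50.2 in LZ_high, 46.2 to 59.0 in LZ_low, 49.97 to 53.5 in DZ_high and 48.5 to 54.7 in DZ_low, with Cd4, Klrb1c and Ncr1 below the median throughout (r = 0.126). The 4 plasma cell markers, with Prdm1 and Tnfrsf17 below the median throughout, summed to 25.4 to 26.1 in LZ_high, 24.8 to 25.4 in LZ_low, 26.6 to 28.5 in DZ_high and 25.8 to 26.2 in DZ_low, and thus ran opposite to Serpinb1a (r = -0.853). The part of other cells in the Serpinb1a values was not tested.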

How the data were processed

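Biotin-labelled, amplified cDNA from 12 samples was hybridized to 1-colour arrays. The deposited values are log2 expression values per probe set made with RMA, per the submitters' processing notes, which also name the build mm8; the log2 scale was read from their range (1.99 to 13.74), and no other step is given in the sources used here. Of 28853 probe sets, 21789 had 1 gene symbol, 1621 several and 5443 none. A gene was tested when it reached the median of all probe sets of the array on at least 3 arrays, which left 11206 of 19938 genes. Limma 3.58.1 in R 4.3.3 (lmFit, eBayes, two-sided) was fitted to the 4 group means over all 12 arrays, with Benjamini-Hochberg adjustment over all tested genes and calls below 0.05; it was tested on simulated data. For Serpinb6a and Serpinb9, which failed the filter, differences come from the same fit without it.

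The members and lists were chosen with earlier results of these data known. Every tested serpin was named, as were proteases and inhibitors called in any contrast, the 3 with the smallest p in LZ_high minus LZ_low per list, and the textbook targets. Matched sets come from a suffix shared by 1 array of each group. Reading that suffix as a shared day is an assumption. With group means removed, 17 of 18 pairs of arrays within a set correlated above 0.1 (lowest -0.0712) and 11 of 12 arrays correlated best with their own set. Alternatives were the replicate block, other filters, normalizations and probe set rules, array weights, only the groups compared, and leaving out set 3 or each array. The number of arrays limits the precision. Symbols were those of the platform annotation, and coordinates are those of the promoter table alone.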

Additional observations from a re-analysis of the deposited data

Results flagged for a closer look

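Birc2, which encodes an inhibitor of apoptosis protein, had positive affinity differences in all 3 matched sets of the light zone (0.271, 0.0307 and 0.33 on the log2 scale) and negative ones in all 3 sets of the dark zone (-0.219, -0.322 and -0.158). The difference between the zones, 0.443 ± 0.489 (SE), did not pass limma's interaction test (adjusted p = 1). With the mean of its probe sets the light zone difference was -0.14, so its sign depends on the probe set. Among the measured members and the tested genes named by the rule, no other showed such opposite signs in every set. That includes Serpinb1a, whose affinity difference was negative in both zones. The share of all tested genes with such opposite signs in every set was not counted. Other genes that failed the filter were not searched. One of these, Ctsl, had LZ minus DZ values of opposite sign at the 2 affinities. They were -0.33 at high affinity (negative in 3 of 3 sets) and 0.32 at low affinity (positive in 3 of 3). The light zone difference of Birc2 was also below 0 without LZ_high replicate 1 (-0.096) and without LZ_low replicate 3 (-0.16). Each of these fits leaves a matched set incomplete, so differences between sets enter the value. Without the whole of set 3 it was 0.15. With 3 arrays a group, single arrays were not tested as outliers.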

How the results depend on the processing

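The signed differences of Serpinb1a kept their direction in each of the 6 contrasts under every alternative run. LZ minus DZ lay between 1.27 and 1.91, LZ_high minus LZ_low between -1.995 and -1.65, and DZ_high minus DZ_low between -1.10 and -0.35. Its LZ minus DZ difference at low affinity moved by more than the SD between replicates without matched set 3 (2.58), as did the Serpinb9 interaction (-0.070). Counts over all genes moved more. In LZ minus DZ, 47 genes were called, against 135 with the replicate block, 80 after a new quantile normalization, 28 with arrays centred on their median, 327 with array weights, 87 without matched set 3 and 12 to 67 without 1 array (33 without DZ_high replicate 3, 67 without LZ_high replicate 3, fewer in the other 10 fits). At high affinity 4 were called, against 9 with the replicate block, 146 with array weights, 0 with only the groups compared and 2 to 5 without 1 array. At low affinity 4 were called, against 25 with the block, 7 after quantile normalization, 40 with array weights, 0 with only the groups compared and 0 to 5 without 1 array. LZ_high minus LZ_low had 0 called genes (466 at an unadjusted p under 0.05 by limma) and 103 with array weights; DZ_high minus DZ_low had 0 (247 unadjusted) and 0 to 1 without 1 array. The cause was not tested. Among named genes the block changed no call other than those of Ctse, Ctsh and Birc3. Array weights also called 1 other serpin, 2 proteases and 2 other inhibitors in LZ minus DZ, and the block called 3 proteases and 1 other inhibitor. Over 20 alternatives the adjusted p in LZ minus DZ ranged from 0.00478 to 0.118 for Casp4, from 0.0365 to 0.79 for Ctse, from 0.0405 to 0.813 for Ctsh and from 0.0138 to 0.225 for Birc3. Signs turned for values near 0. LZ minus DZ of Serpinf2 was -0.031 with array weights, -0.054 without matched set 3 and -0.11 to 0.092 without 1 array, and that of Serpind1 -0.0074 to 0.35 without 1 array. LZ_high minus LZ_low of Birc2 was -0.14 with the mean of its probe sets and -0.16 to 0.52 without 1 array, and that of Cst3 -0.41 to 0.088 without 1 array. The dim signals of Serpinb6a and Serpinb9 limit what can be said of them.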
